A study of Schizosaccharomyces pombe with 6 samples.

Results

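The mug and meu genes of fission yeast (Schizosaccharomyces pombe) were named for transcripts that become abundant when cells enter meiosis, and here they were followed in growing cells that lost the elongation factor Spt5. Of the 5484 transcription units in the authors' table, 68 hold a gene whose current reference symbol is mug or meu followed by a number. These are 63 mug and 5 meu units, picked by name. The group, like the lists and role groups below, was chosen with earlier results of these data known. The reference lists 115 such genes, of which 47, 19 of them meu genes, have no unit analysed here. In 51 of the 68 units the mug or meu gene stands alone. The other 17 units hold it together with neighbours, and the reads of such a unit cannot be assigned to 1 of its genes.

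All 6 libraries came from 1 strain, ASP167, a haploid h- strain with ura4-D18. Its spt5 gene, marked by hphMX6 and kanMX6, is driven by Pnmt81, a promoter that thiamine shuts off, and the protein carries a V5 tag and the auxin degron IAA17. Plant auxin receptors fused to skp1, OsTIR1 and AtTIR1-2NLS-9myc, are each driven by Padh15 and sit at an ade6+ locus with natMX6. The sampled cultures grew in EMM, a minimal medium, and libraries were made at 2.5 h and 4.5 h after thiamine and the auxin NAA were added, against 0 h, with 2 libraries at each time point. Newly made RNA was marked with 4-thiouracil for 10 min, so the counts mostly report RNA made in that time. No spike-in and no untreated time course were analysed here. Changes are therefore relative to the whole pool of labelled RNA, and the loss of Spt5 cannot be told apart from thiamine, from NAA or from hours of growth. In such bulk samples, fewer cells that make an RNA and less RNA per cell cannot be told apart either.

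Meiosis in S. pombe starts when nutrients run out and cells of both mating types meet, so a growing h- culture has no meiotic programme to run. In that programme the HMG-box factor Ste11 opens the way, and the forkhead factor Mei4 later switches on the middle genes, many of them mug genes, through a promoter element called FLEX that holds GTAAACA or GTAAATA. Transcripts of meiotic genes that escape in growing cells are caught by the YTH-domain protein Mmi1, which binds repeats of TNAAAC, named the DSR core, and hands them to the nuclear exosome. Most mug genes have no assigned function: 41 of the 68 units have a mug or meu product with no description in the reference.

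The libraries held between 11525663 and 35673601 counts. Levels are given as counts per 1000000 counts of the library (CPM), scaled by edgeR's TMM factors, and differences were tested by quasi-likelihood in edgeR, with p-values adjusted by Benjamini-Hochberg over 5208 units and a threshold of 0.05. spt5 itself had 121 and 108 CPM at 2.5 h and 98.2 and 92.3 CPM at 4.5 h, against 1045 and 721 CPM at 0 h. It fell by 2.95 on the log2 scale at 2.5 h (adjusted p = 0.00468) and fell by 3.21 at 4.5 h (adjusted p = 0.00383). Of the chosen markers of h- cells, the M-factor gene mfm3 was the one with a unit analysed here. It had 0.470 and 0.201 CPM at 0 h, 4.22 and 4.82 CPM at 2.5 h and 1.45 and 3.64 CPM at 4.5 h, and rose at both times (3.79 and 2.97, edgeR adjusted p = 0.0113 and 0.0242). These levels of mfm3 rest on few counts: 13 and 8 at 0 h, 76 and 56 at 2.5 h, and 19 and 51 at 4.5 h. The submitters call the libraries biological replicates. The 0 h libraries differed at least 2-fold in 10.8% of tested units, against 1.21% at 2.5 h and 0.653% at 4.5 h. Of the 67 tested members, 50 were lower in replicate 1 than in replicate 2 at 0 h (median log2 difference -0.21), while 2583 of all 5208 units were.

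The first form of the FLEX core, GTAAACA, stood at the start of 25 of the 68 members (36.8%) on either strand, within the window from 250 bases before to 50 bases after the authors' unit start. Among all 4470 coding units 714 windows held it (16%), and among all 5484 units 813 did (14.8%). In the 51 units where the mug or meu gene stands alone the share was 45.1%, against 16% of the 4105 coding units with 1 gene. At least 2 matches were found in 9 members (13.2%), namely mug65, mug84, meu29, mug125, mug162, mug20, mug98, meu23 and mug174, while 67 coding units (1.5%) had as many. The 35 matches lay a median of 102 bases before the start, 21 of them in the last 150 bases before it and 4 after it. The second form, GTAAATA, stood in 23.5% of members and 16.8% of coding units, and one position cannot hold both forms. The TR box, TTCTTTGTT, which Ste11 binds, was found in none of the 68 windows and in 1.99% of coding windows. TGACGT, the CRE core bound by Atf1-type factors, was found in 7.35% of members and 5.64% of coding windows. A TR box can share its last bases with a FLEX core read on the other strand, which no member window had. These shares describe letters in a window, with no test, and the members were not chosen by them.

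Of the members that rose in the time course, mug162, mug2 and the mug73/mlo1 unit hold GTAAACA, and meu23 has the most matches, so their sites are shown. Sequences come from the NCBI reference genome, are written 5′ to 3′ along the unit's strand, and carry the FLEX core in capitals. Where the core lies on the other strand the capitals show its reverse complement.
mug162, chrI:4778681-4778710, minus strand: gataaaatttcGTAAACAatgactagtaca
mug162, chrI:4778727-4778756, minus strand: aatttgaaaatTGTTTACacataataataa
mug2, chrII:388835-388864, minus strand: ggattcacatcTGTTTACatgtcatgggag
mug73/mlo1, chrIII:626405-626434, minus strand: accatagcacaGTAAACAttacatagcgat
meu23, chrIII:99481-99510, minus strand: aatattaatttGTAAACAataaattatgcc
meu23, chrIII:99573-99602, minus strand: ggaagctttttTGTTTACagctttggtgtt
meu23, chrIII:99558-99587, minus strand: tacagctttggTGTTTACatattcatgtac
The core began 151 and 197 bases before the start of mug162, 212 bases before mug2, 137 bases before mug73/mlo1, and 23, 115 and 100 bases before meu23. The mug73/mlo1 unit begins with mlo1, so its core lies ahead of mlo1 and not directly ahead of mug73. The mug162 window also held GTAAATA on each strand, 61 and 9 bases before the start.

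**Figure D1:**
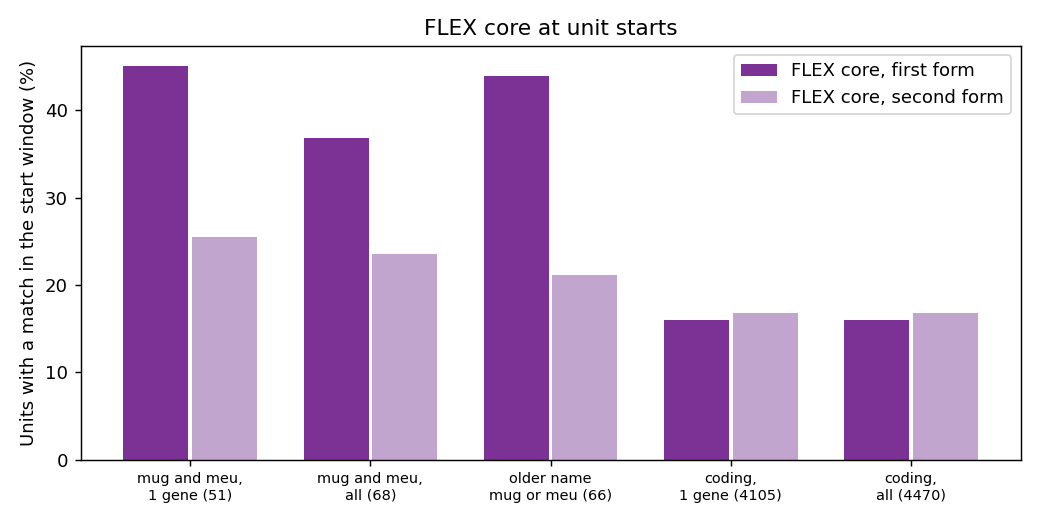
Share of units (percent, y axis) whose start window holds the FLEX core in its C form (first form, dark) or T form (second form, light). The dark bars stand at 45.1% and 36.8% for the mug and meu units and at 16% for both groups of coding units; bars have no error because each is a count of windows in 1 genome.

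In growing cells the members were low. Per kb of unit without introns, the median member had 27.5 CPM at 0 h, against 44.7 CPM for all coding units, and 29 of 68 members were among the lowest 25% of coding units while 5 were among the highest 25%. The 5 highest levels per kb were the mug106/gpm1 unit at 330 CPM, mug33 at 205, mug122, a PX-domain protein, at 146, the mug72 unit, with an oxidoreductase, at 109, and the atg38/mug168 unit at 97.4. The first of these also holds the glycolytic enzyme gene gpm1, so its level cannot be given to mug106. At the other end, mug114 had 0.574 CPM per kb, mug125 1.21, mug37 1.27, mug98 1.95 and mug153 2.57. These 5 also had the fewest counts. mug114 had 13 and 17 counts at 0 h, 11 and 7 at 2.5 h, and 0 and 5 at 4.5 h. It was the single member left out of the tests for low counts. The count of 0 allows up to 0.221 CPM in that library, by its total without the TMM factor and for counting error only.

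**Figure D2:**
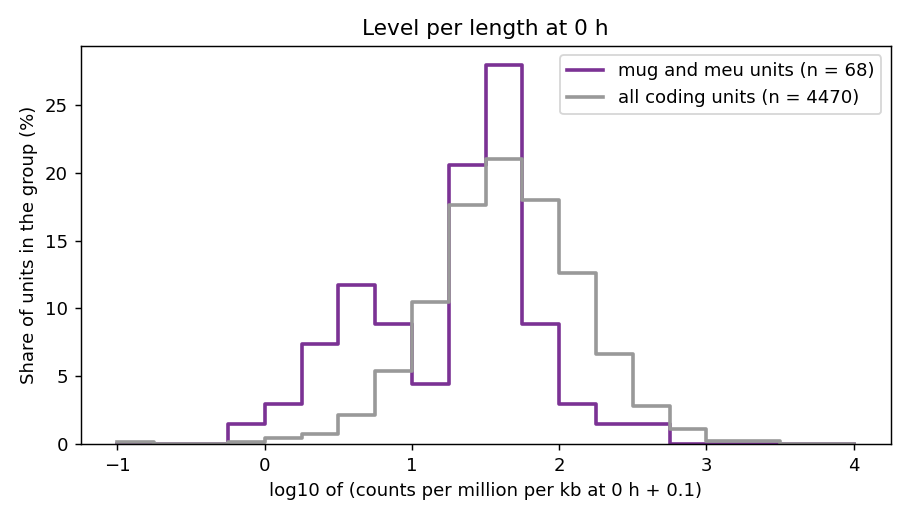
Distribution of levels at 0 h for 68 mug and meu units (purple) and 4470 coding units (grey); x axis log10 of CPM per kb plus 0.1, y axis percent of the group in each bin of equal width. The member median was 27.5 and the coding median 44.7 CPM per kb.

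At 2.5 h, 10 of 67 tested members rose and 0 fell. The rises are 14.9% of members, against 12.3% of all tested units and 7.65% of tested coding units, while 5.11% of all units and 5.85% of coding units fell. The members are low in level, and low coding units rose more often: among 1405 other coding units below the member median per kb, 13.8% rose and 1.71% fell. 6 of the 33 tested members in the lower 50% by level per kb rose (18.2%, median change 0.40), and 4 of the 34 in the upper 50% did (11.8%, median change 0.01). The median member changed by 0.11 on the log2 scale, against 0.01 for all tested units and 0.13 for the low coding units. At an unadjusted p under 0.05, 17 members were higher and 2 lower, and DESeq2 called 11 higher and 1 lower.

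mug2, a gene with no assigned function on chromosome II (387240 to 388641, minus strand), rose most. It had 3.83 and 4.67 CPM at 0 h, 16.8 and 14.0 CPM at 2.5 h and 17.1 and 16.5 CPM at 4.5 h. Both treated times lay above both 0 h libraries and overlapped each other. The log2 fold change was 1.86 ± 0.22 (SE) at 2.5 h (edgeR adjusted p = 0.00658) and 1.98 ± 0.22 at 4.5 h (adjusted p = 0.00641). On the other strand the noncoding unit SPNCRNA.1351 covers 66.3% of mug2, and it had 50.8 and 79.0 CPM at 0 h, 32.0 and 38.4 CPM at 2.5 h and 63.8 and 61.2 CPM at 4.5 h. Its change was -0.88 at 2.5 h (edgeR adjusted p = 0.0531) and -0.06 at 4.5 h. At 4.5 h mug2 was high while the level of SPNCRNA.1351 lay within its own 0 h range. The counting's strand setting is not given in the sources used here. mug37, which sar1 covers whole on the other strand, had 1.77 and 1.41 CPM at 0 h where sar1 had 153 and 84.2 CPM, so its counts hold few of the reads of sar1. How many reads of the other strand an overlapped member holds was not measured.

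A group of 3 members rose at 2.5 h and fell at 4.5 h relative to 2.5 h. mug115 (chromosome I, 1150681 to 1151952, minus strand) had 9.01 and 12.0 CPM at 0 h, 24.3 and 31.7 CPM at 2.5 h and 7.15 and 7.86 CPM at 4.5 h. Its 2.5 h libraries stood above all others, and its 4.5 h libraries below both at 0 h. It changed by 1.41 ± 0.24 at 2.5 h against 0 h (edgeR adjusted p = 0.0145) and by -1.90 ± 0.25 at 4.5 h against 2.5 h (adjusted p = 0.0197). mug150 (chromosome III, 1300687 to 1301238, minus strand) had 2.03 and 1.98 CPM at 0 h, 5.39 and 3.79 CPM at 2.5 h and 1.37 and 1.36 CPM at 4.5 h, from at most 97 counts in a library. It peaked at 2.5 h with no overlap, and it changed by 1.20 ± 0.29 (edgeR adjusted p = 0.0371) and then by -1.76 ± 0.32 (adjusted p = 0.0325). mug162 (chromosome I, 4775733 to 4778548, minus strand), whose sites are shown above, had 14.6 and 17.2 CPM at 0 h, 34.9 and 40.5 CPM at 2.5 h and 18.7 and 19.5 CPM at 4.5 h. Its 4.5 h libraries lay close to those at 0 h, above both. The changes were 1.24 ± 0.19 (edgeR adjusted p = 0.0102) and -0.98 ± 0.19 (adjusted p = 0.0355). These genes have no described product. The coding unit sst6 overlaps 58.8% of mug162 on the other strand and read 18.8 and 23.3 CPM at 0 h, 14.8 and 14.8 CPM at 2.5 h and 9.13 and 14.6 CPM at 4.5 h.

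A further 3 members were higher at both treated times. The mug73/mlo1 unit (chromosome III, 623318 to 626286, minus strand) holds a transporter gene and mlo1, annotated as an RNA-binding protein. It had 119 and 137 CPM at 0 h, 229 and 246 CPM at 2.5 h and 297 and 338 CPM at 4.5 h, with no overlap between times. Its log2 fold changes were 0.89 ± 0.15 at 2.5 h (edgeR adjusted p = 0.0145) and 1.31 ± 0.16 at 4.5 h (adjusted p = 0.00693). mug35 had 86.7 and 112 CPM at 0 h, 162 and 185 CPM at 2.5 h and 167 and 192 CPM at 4.5 h. Its treated libraries overlapped each other and lay above both at 0 h, with changes of 0.80 ± 0.18 (edgeR adjusted p = 0.0314) and 0.85 ± 0.18 (adjusted p = 0.0275). The coding unit tfg3 overlaps 37.5% of mug35 on the other strand and rose at 4.5 h (0.58, edgeR adjusted p = 0.033). The mug108 unit, which also holds SPAC29A4.22, had 6 and 7.68 CPM at 0 h, 17.6 and 17.0 CPM at 2.5 h and 12.6 and 13.8 CPM at 4.5 h. Its changes were 1.34 ± 0.21 (edgeR adjusted p = 0.012) and 0.95 ± 0.21 (adjusted p = 0.0321). A multicistronic unit with rrn5, rga3 and rrp17 covers all of the mug108 unit on the other strand at 818 to 1540 CPM, and the part of its reads in the mug108 values was not tested.

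Of the remaining rises at 2.5 h, mug161 codes for a splicing factor of the CwfJ family. It had 156 and 135 CPM at 0 h, 291 and 294 CPM at 2.5 h and 185 and 205 CPM at 4.5 h, and changed by 1.01 ± 0.15 at 2.5 h (edgeR adjusted p = 0.0101) and by 0.43 at 4.5 h (adjusted p = 0.0987). The high libraries were those at 2.5 h. The noncoding unit SPNCRNA.669 overlaps 3.0% of mug161 on the other strand. It rose at 2.5 h (1.49, edgeR adjusted p = 0.0174) and at 4.5 h (1.28, adjusted p = 0.0277). The coding unit oct1, also on that strand, overlaps 28.7% of mug161 and changed by 0.72 at 2.5 h (edgeR adjusted p = 0.0512). The part of their reads in the mug161 values was not tested. mug14, an adducin, a protein of the actin cytoskeleton, had 4.38 and 3.04 CPM at 0 h, 6.89 and 10.9 CPM at 2.5 h and 6.85 and 6.86 CPM at 4.5 h. The 2.5 h libraries differed among themselves more than those at 4.5 h and lay above both at 0 h (1.26 ± 0.32, edgeR adjusted p = 0.0436). The ppk38/mug170 unit holds a protein kinase gene and an arrestin-family membrane adaptor, and had 115 and 119 CPM at 0 h, 183 and 194 CPM at 2.5 h and 127 and 133 CPM at 4.5 h. It was highest at 2.5 h, by 0.69 ± 0.13 against 0 h (edgeR adjusted p = 0.0189).

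**Figure D3:**
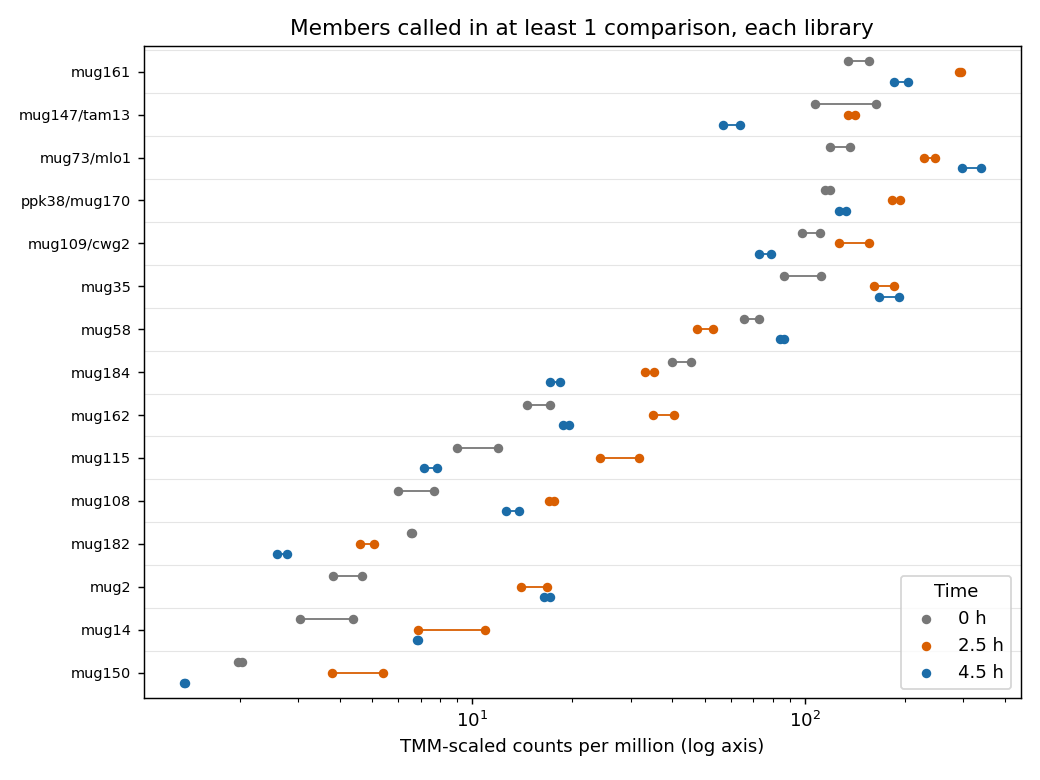
Level of the 15 members called in at least 1 comparison, in CPM on a log x axis; each point is 1 library and each line joins the 2 libraries of a time point. mug2, mug35 and mug73/mlo1 stand higher at both treated times, mug115, mug150 and mug162 peak at 2.5 h, and mug182, mug184 and mug147/tam13 are lowest at 4.5 h.

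At 4.5 h, 4 members rose (5.97%, against 10.1% of all tested units and 7.38% of coding units) and 3 fell (4.48%, against 7.80% and 8.30%). Scaled by library totals instead of TMM factors, 2 rose and 5 fell, and mug108 and mug35 missed the threshold (edgeR adjusted p = 0.069 and 0.0787). The 4 are mug2, mug73/mlo1, mug108 and mug35, all of which had risen at 2.5 h as well; both comparisons share the 0 h libraries. The median member changed by 0.14, against 0.02 for all units. Among the low coding units 10.8% rose and 9.75% fell.

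The 3 members that fell at 4.5 h did not pass at 2.5 h, with changes of -0.44 for mug182, -0.32 for mug184 and 0.03 for mug147/tam13. mug182, NADHX epimerase, an enzyme that repairs damaged NADH, had 6.55 and 6.60 CPM at 0 h, 4.61 and 5.08 CPM at 2.5 h and 2.59 and 2.78 CPM at 4.5 h. Its times did not overlap, and it fell by 1.29 on the log2 scale at 4.5 h (SE 0.23, edgeR adjusted p = 0.0171). The noncoding unit SPNCRNA.926 covers the whole of mug182 at 29.6 to 46.1 CPM on the other strand and changed by -0.23 (adjusted p = 0.548). mug184 (chromosome II, 299248 to 301370, minus strand) had 39.8 and 45.5 CPM at 0 h, 33.2 and 35.2 CPM at 2.5 h and 17.2 and 18.4 CPM at 4.5 h. It was lowest at 4.5 h, by 1.26 on the log2 scale below 0 h (log2 fold change -1.26, SE 0.17, edgeR adjusted p = 0.00846). The mug147/tam13 unit had 107 and 164 CPM at 0 h, 142 and 135 CPM at 2.5 h and 56.7 and 64.1 CPM at 4.5 h. Its 2.5 h libraries lay between those at 0 h and its 4.5 h libraries below all others, with a change of -1.17 ± 0.23 (edgeR adjusted p = 0.0215).

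Between the treated times, 6 members were lower at 4.5 h than at 2.5 h (8.96%, against 6.91% of all tested units, 6.10% of coding units and 10.2% of low coding units) and 1 was higher (1.49%, against 3.34%, 3.81% and 1.35%). With library totals 0 members were higher and 6 lower, while 42 of all units were higher and 286 lower, against 174 and 360 with TMM factors. The lower ones are mug115, mug150, mug162, mug147/tam13 (-1.20 ± 0.23, edgeR adjusted p = 0.0355), mug184 (-0.94 ± 0.17, adjusted p = 0.0316) and the mug109/cwg2 unit. The last, named here after its values were seen together with ppk38/mug170, holds a Rab GTPase-binding protein and cwg2, and had 72.7 and 79.3 CPM at 4.5 h, against 127 and 156 CPM at 2.5 h (-0.89 ± 0.17, adjusted p = 0.0347). At 0 h it had 98.1 and 111 CPM, between the treated times. mug58, a glycerate kinase, had 86.7 and 84.5 CPM at 4.5 h, against 53.0 and 47.3 CPM at 2.5 h, and rose by 0.77 ± 0.15 (edgeR adjusted p = 0.0378). Its 0 h libraries, at 73.1 and 65.5 CPM, lay between the treated times as well. The median member changed by -0.11, against -0.01 for all units and -0.21 for the low coding units. The split depends on the libraries in the fit. With edgeR fitted to the treated libraries alone, 9 members were higher and 15 lower at 4.5 h than at 2.5 h. Among all units 950 were then higher and 1059 lower.

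These calls rest on few libraries. At 2.5 h, 0 of the 10 rises passed when either 2.5 h library was left out, with edgeR on 5 libraries, and across all units the calls then dropped to 183 without replicate 1 and 1 without replicate 2, from 908. At 4.5 h the calls dropped too, among members and among all units, when either 4.5 h library was left out. mug2 then changed by 1.95 without replicate 1 and by 2.00 without replicate 2, and mug73/mlo1 by 1.40 and 1.21. Without a 0 h library the calls grew instead, among members and among all units alike, with more falls at 2.5 h in both. No member in the 24 calls changed sign in any of these fits.

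**Figure D4:**
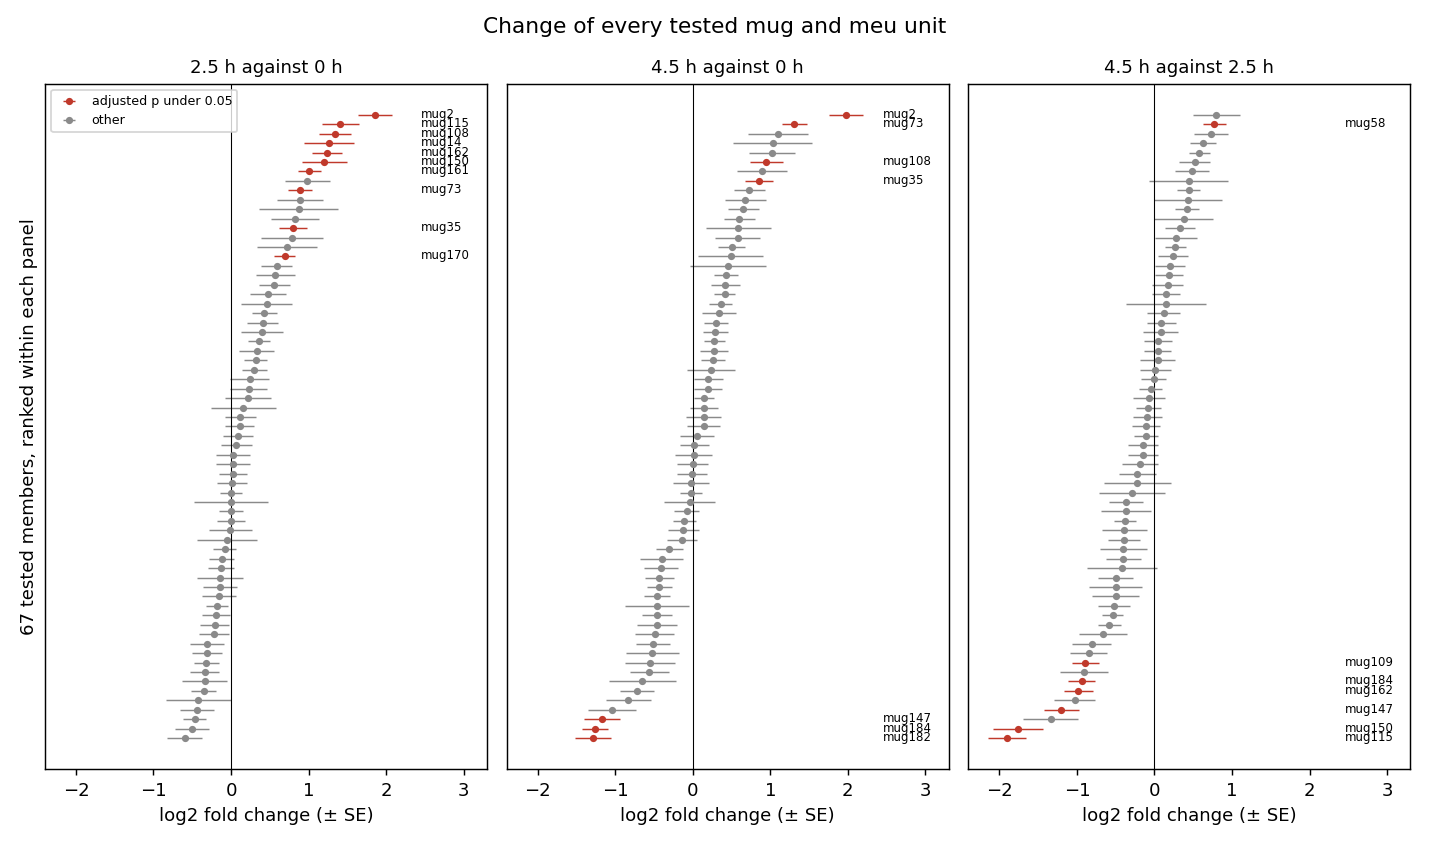
Log2 fold change with its SE (x axis) for the 67 tested members, ranked from lowest to highest within each panel; red marks an edgeR adjusted p under 0.05, with the mug gene's name beside it. The left panel has 10 rises and 0 falls, the middle one 4 rises and 3 falls, and the right one 1 rise and 6 falls.

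By role, the 4 members of the spore wall and cell surface had no call with edgeR in any comparison. At an unadjusted p under 0.05, 1 passed at 2.5 h, 1 at 4.5 h and 2 between the treated times, and DESeq2 called 1, between the treated times. Spore wall assembly gene mug65 had 18.3 and 20.6 CPM at 0 h, 16.4 and 17.7 CPM at 2.5 h and 16.5 and 15.2 CPM at 4.5 h, and mug56, with the same annotation, read 170 to 236 CPM over all libraries. The times of mug65 were close, with changes of -0.19 and -0.30 at 2.5 h and 4.5 h, and mug84, a subunit of the enzyme that starts GPI anchors, changed by -0.13 and 0.50 (edgeR adjusted p = 0.649 and 0.0856). Of 5 members of the nucleus, chromosomes and RNA, mug161 rose at 2.5 h (20%, against 12.3% of all tested units) and no other passed. Among these, mug20, a protein of the linear elements that form along meiotic chromosomes, had 1.84 and 1.61 CPM at 0 h, 1.89 and 1.98 CPM at 2.5 h and 1.60 and 3.57 CPM at 4.5 h, with overlap between 4.5 h and 0 h. mug174, coilin of the Cajal body, changed by 0.00 and 0.15. Of 9 members of membranes, transport and cytoskeleton, 3 rose at 2.5 h (mug14, mug73/mlo1 and ppk38/mug170). These are 33.3%, against 12.3% of all tested units and 7.65% of coding units. At 4.5 h 1 rose (mug73/mlo1, 11.1%, against 10.1% and 7.38%). A fall from 2.5 h to 4.5 h was called in 1 (mug109/cwg2, 11.1%, against 6.91% and 6.10%). Roles follow the mug or meu gene of a unit. The units mug73/mlo1, ppk38/mug170 and mug109/cwg2 each hold another gene too, so their calls cannot be assigned to the mug gene. mug14 stands alone in its unit. Of 9 enzymes and protein turnover members, mug182 fell at 4.5 h (11.1%, against 7.80% of all tested units and 8.30% of coding units). In that group mug58 rose between the treated times (11.1%, against 3.34% and 3.81%). The 40 tested members with no described product had 6 rises and 0 falls at 2.5 h (15% and 0%). All tested units had 12.3% and 5.11%, and coding units 7.65% and 5.85%. At 4.5 h these members had 3 rises and 2 falls (7.5% and 5%), against 10.1% and 7.80% of all units and 7.38% and 8.30% of coding units. Between the treated times 0 of these members were higher and 5 lower (12.5% lower, against 6.91% of all units and 6.10% of coding units).

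None of the 5 meu units passed the threshold in any comparison with edgeR or with DESeq2. At an unadjusted p under 0.05, 1 passed at 2.5 h, 3 at 4.5 h and 0 between the treated times. meu23, with 3 FLEX cores at its start and 98.5 kb from a chromosome end, came closest: it had 8.17 and 9.39 CPM at 0 h, 11.9 and 13.9 CPM at 2.5 h and 14.4 and 14.8 CPM at 4.5 h. The times did not overlap, and the change was 0.73 ± 0.20 at 4.5 h (edgeR adjusted p = 0.0544). meu1 had 19.6 and 32.9 CPM at 0 h, 31.9 and 37.6 CPM at 2.5 h and 42.6 and 41.6 CPM at 4.5 h, with 4.5 h above and 2.5 h overlapping 0 h (0.68 ± 0.27 at 4.5 h, adjusted p = 0.129). meu29 changed by -0.22 and 0.02, the ade7/meu18 unit, which holds a purine synthesis gene, by 0.48 and -0.02, and the meu34/rpp1 unit, with a ubiquitin ligase, by -0.35 and -0.43 at 2.5 h and 4.5 h. Members were also split by the first form of the FLEX core, GTAAACA, called the core here. Some members without it hold the second form, GTAAATA. The medians of members with and without GTAAACA were alike at 2.5 h. The 25 with GTAAACA had a median of 0.11 and 3 rises (12%), and the 42 tested without it had 0.11 and 7 rises (16.7%). Of coding units with and without GTAAACA, 7% and 7.77% rose. At 4.5 h the member medians were 0.26 with the core and -0.01 without it. Those with it had 2 rises and 0 falls (8% and 0%), and those without it 2 rises and 3 falls (4.76% and 7.14%). Coding units with the core had a median of -0.01, and 7.84% rose and 8.54% fell. Those without it had -0.03, and 7.29% rose and 8.25% fell. The difference between members with and without the core was not tested.

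The 0 h libraries differed most in mug64 and mug106/gpm1, and next in mug151 and mug143. The mug106/gpm1 unit had 2330 and 1048 CPM at 0 h, 2942 and 2610 CPM at 2.5 h and 3193 and 4051 CPM at 4.5 h, and mug64, a BAR-domain protein, had 101 and 41.7 CPM, 61.2 and 45.4 CPM and 46.7 and 44.7 CPM at those times. In both, replicate 1 at 0 h was the higher. mug151, named after its values were seen, had 3.91 and 2.11 CPM at 0 h (log2 difference 0.89), and mug143 differed by -0.85; with 0.5 CPM added to every level, mug143 ranks before mug151. mug143 had 11.1 and 20.0 CPM at 0 h, 16.4 and 19.9 CPM at 2.5 h and 30.3 and 33.0 CPM at 4.5 h, where both 4.5 h libraries were above the rest (1.02 ± 0.30 against 0 h, edgeR adjusted p = 0.0653).

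The TNAAAC core was counted on the sense strand without introns. Its median was 1.68 per kb in members and 1.66 in coding units. In units with 1 gene the median was 1.46 per kb in members and 1.65 in coding units. 8 members were in the top 10% of coding units. mug9 had 13 copies (11.3 per kb, percentile 100), mug8 13 copies (6.25 per kb), mug178, a mitochondrial ribosomal protein, 9 copies, and mug20 3 copies (5.29 per kb). A stretch of 30 bases with 2 cores, the first such stretch from the unit start, is shown for mug9 and mug8, the members with the most copies per kb, with the cores in capitals.
mug9, chrIII:2369332-2369361, minus strand: ctcaatcgccttctgTTAAACaatTGAAAC
mug8, chrI:2446807-2446836, plus strand: tccgtagatcttTTAAACgtatttTAAAAC
mug9 had 44.2 and 62.8 CPM at 0 h, 83.5 and 77.1 CPM at 2.5 h and 77.6 and 84.1 CPM at 4.5 h. Every treated library was above both at 0 h, yet the changes of 0.59 ± 0.20 and 0.60 ± 0.20 did not pass (edgeR adjusted p = 0.101 and 0.0917). mug8 had 128 and 184 CPM at 0 h, 159 and 168 CPM at 2.5 h and 166 and 145 CPM at 4.5 h, all within the 0 h range (0.07 ± 0.20 and 0.00 ± 0.20).

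In the authors' deposited table, whose half-lives and synthesis times state no time unit, 48 of the 67 members with a value lie below percentile 50 of coding units for half-life, with a median percentile of 28.7. For synthesis time 20 of them lie in the top 10% of coding units in the authors' deposited table, with a median percentile of 72.4. The shortest half-life ranks in the authors' deposited table include mug8 at percentile 0.583 and mug86, an acetate transporter, at 0.740. These ranks are a description: the members are also low in level, and the part of level in the ranks was not tested.

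On the other strand, 25 members were overlapped by 30 units. Of these partners 6 rose and 0 fell at 2.5 h (20.0%, against 12.3% of all tested units), 6 rose and 1 fell at 4.5 h (20.0% and 3.33%, against 10.1% and 7.80%), and with edgeR 0 differed between the treated times, where 8 passed at an unadjusted p under 0.05 and DESeq2 called 3. Other scalings moved these splits: at 4.5 h 3 rose and 2 fell with library totals, 5 and 2 with DESeq2's size factors and 6 and 2 with TMM factors taken without ribosomal protein units, which gave 4 and 1 at 2.5 h. Of the 14 noncoding partners 4 rose at 2.5 h (28.6%), while 40.2% of all noncoding units rose. At 4.5 h 4 of the 14 rose and 1 fell (28.6% and 7.14%), against 26.3% and 4.81% of all noncoding units. Of the 16 coding partners 2 rose and 0 fell at each time (12.5% rose, against 7.65% of coding units at 2.5 h and 7.38% at 4.5 h). The steepest was a noncoding unit opposite mug113/rit1/erf4, with 0.181 and 0.251 CPM at 0 h, 2.78 and 3.27 CPM at 2.5 h and 1.75 and 2.14 CPM at 4.5 h (3.74 at 2.5 h, edgeR adjusted p = 0.00527). The mug113/rit1/erf4 unit itself changed by 0.00 at 2.5 h (adjusted p = 1), with 139 and 152 CPM, against 133 and 158 CPM at 0 h. Opposite mug74/med13, SPNCRNA.885 rose by 1.66 (adjusted p = 0.00894), and mug74/med13, which holds a Mediator subunit gene, changed by -0.15 (adjusted p = 0.702). A partner of mug117, cca2, covers 99.4% of it and rose by 0.80 at 2.5 h (edgeR adjusted p = 0.0446), and mug117 had 6 and 9.73 CPM at 2.5 h, against 3.69 and 4.19 CPM at 0 h (0.98 ± 0.29, adjusted p = 0.068).

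The rest of the meiotic programme was read from lists of genes whose current symbols are not mug or meu; 5 of them, mcp7, tht2, bqt1, spo7 and bgs2, carry such a name as an older one. Of 10 regulators of entry into meiosis, 5 had a unit, and at 4.5 h 2 rose and 1 fell (median 0.00, against 0.02 for all units, of which 10.1% rose and 7.80% fell). mei4, the forkhead factor that binds FLEX, had 17.2 and 26.2 CPM at 0 h, 49.8 and 42.9 CPM at 2.5 h and 61.8 and 70.1 CPM at 4.5 h. All 4 treated libraries were above both at 0 h, with rises of 1.09 (edgeR adjusted p = 0.0282) and 1.60 (adjusted p = 0.0112). atf31, a bZIP factor of meiosis, had 0.362 and 0.352 CPM at 0 h, 4.50 and 6.03 CPM at 2.5 h and 2.89 and 4.93 CPM at 4.5 h, and rose by 3.85 (adjusted p = 0.00538) and 3.44 (adjusted p = 0.00693). ste11 had 251 and 188 CPM at 0 h, 160 and 125 CPM at 2.5 h and 133 and 85.5 CPM at 4.5 h; all its treated libraries lay below both at 0 h without passing the test (-1.01 at 4.5 h, edgeR adjusted p = 0.0505). pat1, the kinase that holds meiosis off, is named after its values were seen: it had 144 and 171 CPM at 0 h, 215 and 205 CPM at 2.5 h and 80.1 and 83.7 CPM at 4.5 h, and fell by 0.94 at 4.5 h (edgeR adjusted p = 0.0118).

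Of 23 genes of horsetail movement, recombination and linear elements, 7 were tested, with a median change of 0.47 at 2.5 h and 0.04 at 4.5 h. Against 0 h, 1 rose at 2.5 h, when 12.3% of all tested units rose, and 1 fell at 4.5 h, when 7.80% fell. At 2.5 h bqt1, a telomere-bouquet protein, rose (1.97, edgeR adjusted p = 0.0343), with 4.83 and 5.34 CPM, against 0.832 and 1.71 CPM at 0 h. At 4.5 h the dpm2/rec6 unit fell (-1.11, edgeR adjusted p = 0.0429), with 3.12 and 5.14 CPM, against 8.93 and 8.97 CPM at 0 h, while tht2 changed by 0.83 (adjusted p = 0.082). Neither of the 2 tested genes of the meiotic divisions, mes1 and sgo1, passed. Of 19 tested genes of spore formation, 1 rose at 2.5 h, when 12.3% of all tested units rose. It was the protease gene isp6 (0.67, edgeR adjusted p = 0.0409). With edgeR 0 were called at 4.5 h, when 10.1% of all units rose and 7.80% fell. At that time 2 passed at an unadjusted p under 0.05, DESeq2 called 1 and the median was -0.11. The largest change there was agn2, a glucanase that helps to release spores, with 2.66 and 3.50 CPM at 4.5 h, against 18 and 5.37 CPM at 0 h (-1.92, edgeR adjusted p = 0.0798), followed by spn2 at -0.71 and spo7 at -0.62.

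Of 11 genes that remove meiotic RNA in growing cells, 2 fell and 0 rose with edgeR at 2.5 h (median -0.25, against 0.01 for all units, of which 5.11% fell and 12.3% rose), and 0 were called at 4.5 h. At an unadjusted p under 0.05, 0 were higher and 3 lower at 2.5 h and 1 was lower at 4.5 h, and DESeq2 gave the same counts. pir2, known also as ars2, had 67.3 and 61.9 CPM at 2.5 h, against 121 and 115 CPM at 0 h (-0.87, edgeR adjusted p = 0.0119). pab2, a poly(A)-binding protein, had 65.5 and 62.2 CPM at 2.5 h, against 127 and 96.4 CPM at 0 h (-0.80, adjusted p = 0.0301). Both were below every 0 h library at 2.5 h, and at 4.5 h the changes were -0.46 and -0.07. mmi1 had 150 and 143 CPM at 2.5 h and 142 and 141 CPM at 4.5 h, against 185 and 164 CPM at 0 h, below both 0 h libraries at each time without passing (-0.25 and -0.30, edgeR adjusted p = 0.247 and 0.171). rrp6, the nuclear exosome nuclease, rose by 0.67 at 4.5 h against 2.5 h (edgeR adjusted p = 0.0385), with 114 and 112 CPM at 4.5 h, against 69.5 and 72.5 CPM at 2.5 h. Of the reported Mmi1 targets with other current symbols, mei4 and mcp7 had a unit, and mcp7 changed by 0.13 and 0.40.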

How the data were processed

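Per the labels' protocols, 4-thiouracil was used at 5 mM for 10 min, and NuGen's Ovation kit made the libraries. The submitters' processing notes name STAR 2.3.0, SAMtools and the build ASM294v2. How reads were counted, by which strand rule and with what handling of repeats, is not given in these sources. The authors deposited whole-number read counts per transcription unit, 1 file per library, not normalised. The authors' deposited table gives unit positions, classes and genes, and kinetic scores with no time unit, used only as ranks.

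The members are units whose gene identifiers have a mug or meu symbol in the reference annotation. The members, lists and role groups were chosen with earlier results of these data known. Identifiers matched in 5028 of 5062 cases (99.3%), all on the same chromosome and strand, and 4902 of 4912 introns (99.8%), including all 53 of the members, had splice site bases in the reference genome, so positions and sequence could be read from it. Counts were tested with edgeR 4.0.16 in R 4.3.3 (filterByExpr, 276 units left out, TMM, robust quasi-likelihood, time point as the single factor, all 6 libraries, 3 residual degrees of freedom), with Benjamini-Hochberg adjustment. The test was tried on simulated data first. Depth limits low members most: 3 counts correspond to 0.0841 to 0.260 CPM by library totals without TMM factors. Replicate p-values cover the spread between these libraries. Members were named by the largest called rises and falls without overlap and a mean count of at least 50. Every meu unit, the 5 highest and 5 lowest, and the 3 that differed most at 0 h were named too. Of each list, the 3 largest changes at 4.5 h were named. Other members and list genes in the text, among them mug65, mug20, mug9, isp6 and pab2, fall outside these rules. DESeq2 1.42.0, other scalings and filters, a replicate block and leaving out each library were alternatives.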

Additional observations from a re-analysis of the deposited data

Results flagged for a closer look

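For 7 members the difference between the 4.5 h and the 2.5 h libraries passed edgeR's quasi-likelihood test, which also tests whether the change from 0 h differs between the times, since both changes share the 0 h libraries. The log2 difference, 4.5 h against 2.5 h, was -1.90 for mug115, -1.76 for mug150, -1.20 for mug147/tam13, -0.98 for mug162, -0.94 for mug184, -0.89 for mug109/cwg2 and 0.77 for mug58. The share is 10.3% of all tested units, and 7 of 67 members. With 2 libraries at each time, a library that stands apart within a time point could not be looked for.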

How the results depend on the processing

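The 24 member calls kept their direction in all 336 values recomputed, and 15 of them stayed past the threshold in each of the 8 settings that keep every library; none did in all 6 fits that leave out a library. Counts below are calls with edgeR unless named, for members, all units, the meiotic lists and the units opposite members in that order where several are given. DESeq2 called 11 members and 7 list genes at 4.5 h, 10 opposite units at 2.5 h, and 13, 920, 9 and 3 between the treated times. Fitting only the groups compared gave 3, 363 and, for opposite units, 2 at 4.5 h, 6, 420, 2 and 2 at 2.5 h, and 24, 2009, 17 and 9 between the treated times. Library totals left 3 opposite units at 2.5 h and 328 units between the treated times, and DESeq2's size factors left 3 opposite units at 2.5 h. Members in units with 1 gene had 4 calls at 4.5 h, and members free of opposite overlap had 3 at 4.5 h and 4 at 2.5 h. Among list genes, library totals gave 2 rises and 4 falls at 4.5 h against 2 and 2, 2 and 2 at 2.5 h against 4 and 2, and 0 and 2 between the treated times against 1 and 2; TMM without ribosomal protein units gave 3 and 3 at 2.5 h and 2 and 2 between the treated times. Scaling moved the median of all units by less than 0.1 (log2).

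Leaving out 1 library gave, against 0 h at 4.5 h, 0 to 22 members, 48 to 2186 units, 0 to 17 list genes and 0 to 13 opposite units. At 2.5 h it gave 0 to 24 members, 1 to 2215 units, 0 to 20 list genes and 0 to 14 opposite units. Between the treated times it gave 0 to 24, 0 to 2024, 0 to 18 and 0 to 9. The high ends came without a 0 h library, the low ends without a 2.5 h or 4.5 h one; a time point left with 1 library was assumed to vary like the others. The cause of the other shifts was not tested.

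The labels do not say what a replicate number shares, and there are 2 numbers. Differences between replicates correlated across units by 0.506 (0 h and 2.5 h), 0.229 (0 h and 4.5 h) and 0.135 (2.5 h and 4.5 h). With the replicate block, 10 members were called at 4.5 h (7 rises and 3 falls, against 4 and 3 without it), 10 at 2.5 h and 7 between the treated times, and 2 opposite units between the treated times, against 0. Low depth limits mug114 and the other members under 50 counts most.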

Other observations

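A further 66 units hold genes that carry mug or meu as an older name and now have another symbol; this group was chosen after the data were seen, and 5 of its genes are also in the meiotic lists. GTAAACA stood at the start of 43.9% of them, against 16% of coding units. At 2.5 h 6 of them rose and 3 fell (9.09% and 4.55%). The shares were 12.3% and 5.11% for all tested units, and 7.65% and 5.85% for coding units. The autophagy gene atg5 had 31.7 and 35.5 CPM at 0 h, 75.9 and 87.7 CPM at 2.5 h and 28.6 and 28.5 CPM at 4.5 h, the same order of times as mug115. It rose at 2.5 h (1.28 ± 0.16, edgeR adjusted p = 0.00677) and was lower at 4.5 h than at 2.5 h (-1.52 ± 0.16, adjusted p = 0.0152). The kti12/tsn1 unit rose at both times (1.72 and 1.02, edgeR adjusted p = 0.00584 and 0.0181), as did rfp1 (1.20 and 1.07, adjusted p = 0.00949 and 0.0134). So did wtf11, of the wtf gene family (1.46 and 1.21, edgeR adjusted p = 0.0133 and 0.0232). How reads shared with other genes of that family were handled is not given.

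At 4.5 h 3 of these units rose and 5 fell (4.55% and 7.58%). The shares were 10.1% and 7.80% for all tested units, and 7.38% and 8.30% for coding units. egt1, of ergothioneine synthesis, had 91.1 and 67.5 CPM at 4.5 h, against 150 and 201 CPM at 0 h (-1.15 ± 0.21, edgeR adjusted p = 0.0192), and jmj4 had 4.95 and 6.5 CPM, against 16.3 and 12.7 CPM at 0 h (-1.34 ± 0.32, adjusted p = 0.0361). erf2, a palmitoyltransferase subunit, and gwt1, of GPI anchor synthesis, fell at both times: erf2 by 0.99 and 0.92, and gwt1 by 0.59 and 0.60 on the log2 scale.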
